A study of Mus musculus with 4 samples.

Results

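Markers of hippocampal fields CA2 and CA3 were examined in tissue labelled as knockout of Zbtb20 and in tissue labelled as control. The set held 8 of the 18193 genes named on the array, namely Nectin3, Pcp4, Amigo2, Bok, Rgs14, Socs2, Nr3c2 and Coch. Every probe set that the platform annotation gives to 1 of these symbols alone was taken, which gave 19 of the 45037 probe sets on the array. Probe sets with several symbols that hold one of the 8 numbered 0. Hippocampi were dissected at postnatal day 2 from pups with a ZBTB20 knockout genotype (2 arrays, replicates 1 and 2) and from littermates labelled wildtype or control (2 arrays, replicates 1 and 2), and total RNA was hybridised to Affymetrix arrays, in a search for genes that depend on the transcription factor ZBTB20 during hippocampal development. No agent or treatment was given to either group. The knockout allele, strain, sex and number of animals behind each array are not stated in the labels. Nor is it stated that the arrays of one group hold different animals. Sex-linked signals, given below, differed widely between the 2 arrays of each group, so these are unlikely to hold the same RNA. The spread between arrays may still be partly technical.

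The pyramidal layer of the hippocampus is divided into fields CA1, CA2 and CA3. CA3 pyramidal cells receive the mossy fibres of dentate granule cells and project to CA1 through the Schaffer collaterals, while CA2 is a narrow field between them that is known for its resistance to plasticity and its part in social memory. In mice, Zbtb20 encodes a zinc finger repressor known for its role in giving CA1 its identity. Among the 8 genes, Pcp4, Amigo2, Rgs14 and Nr3c2 are known as markers of adult CA2, and Bok, Nectin3, Socs2 and Coch are used as markers of CA3. Several of them are also expressed outside these fields, Pcp4 in deep cortical layers among other places. In whole tissue, fewer cells of a type and less RNA per cell cannot be told apart.

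Promoter sequence is shown for Nectin3, Pcp4 and Nr3c2. The signals of these genes were higher with the knockout label in one pair of arrays and lower in the other. Those of Rgs14 and Coch were as well, but with much smaller differences. The RefSeq table (GRCm38.p6) held a window for 6 of the 8 genes, all but Rgs14 and Socs2. Each sequence below is the 250 bases before the transcription start given there, written 5′ to 3′ on the gene's strand. Capitals mark matches, on either strand, to the motif CCAAT or to the motif GGGCGG. The motif TATAAA was searched on both strands as well. No match of one motif overlapped a match of another.
Nectin3, chr16:46496968-46497217, minus strand: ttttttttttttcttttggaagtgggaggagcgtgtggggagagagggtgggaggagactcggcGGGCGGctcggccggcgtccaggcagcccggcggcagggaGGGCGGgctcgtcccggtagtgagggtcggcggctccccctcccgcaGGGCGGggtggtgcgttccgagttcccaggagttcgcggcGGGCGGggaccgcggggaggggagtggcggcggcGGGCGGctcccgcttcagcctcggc
Pcp4, chr16:96467356-96467605, plus strand: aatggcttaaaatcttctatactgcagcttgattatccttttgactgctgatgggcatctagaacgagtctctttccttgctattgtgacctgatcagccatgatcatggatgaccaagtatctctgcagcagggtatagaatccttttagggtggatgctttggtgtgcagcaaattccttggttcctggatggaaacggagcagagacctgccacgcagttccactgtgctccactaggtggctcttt
Nr3c2, chr8:76902080-76902329, plus strand: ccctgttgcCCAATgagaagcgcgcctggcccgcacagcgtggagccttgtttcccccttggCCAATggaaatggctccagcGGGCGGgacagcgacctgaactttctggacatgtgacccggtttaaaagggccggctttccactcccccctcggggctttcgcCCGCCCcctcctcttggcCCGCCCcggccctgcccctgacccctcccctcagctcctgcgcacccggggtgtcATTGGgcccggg

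The Nectin3 and Nr3c2 windows were rich in G and C and held GGGCGG, and the Pcp4 window was neither. The Nectin3 window held 5 matches to GGGCGG and 0 to CCAAT, and 73.2% of its bases were G or C. The Nr3c2 window held 3 matches to each of the motifs CCAAT and GGGCGG, with 68.4% G or C. The Pcp4 window held 0 matches to any of the 3 motifs and had 46.8% G or C, against a median of 52.4% over all 32851 windows of the same length. Of all windows, 33.8% held CCAAT, 32.7% held GGGCGG and 12.4% held TATAAA. Among the 6 windows of the set, 5 held GGGCGG, 2 held CCAAT and 0 held TATAAA. A match describes these letters only and does not show that a factor binds there.

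The values were on 2 scales, each shared by a knockout and a control array with the same replicate number. The trimmed mean signal was 497 on the array labelled knockout and 498 on the array labelled control of replicate 1, and 156 and 158 on those of replicate 2. Differences are therefore given within each replicate number, as pair 1 and pair 2, always knockout label minus control label, and a probe set is called higher or lower in a pair as its knockout array is above or below its control array. They are on the scale log2(signal + 32.56), where the pseudocount is the 20th percentile of all values, so differences of dim probe sets are understated. Over all probe sets the SD of these differences was 0.58 in pair 1 and 0.20 in pair 2, so equal log2 values do not stand equally far out in both pairs. A pair sets 1 array against 1 array and has no replicate check. With 4 arrays in all, precision is limited throughout. An exact two-sided permutation test of 2 arrays against 2 cannot go below p = 0.333. Of 9 probe sets of Zbtb20, 3 were lower in pair 1, 2 in pair 2 and 0 in both, and the labels do not say which of them fall inside the deletion. The group labels are therefore used as given, without a check by the targeted gene. Of 6 genes used to check the tissue, 5 lay above percentile 95 on all 4 arrays (between 95.3 and 99.9), namely Neurod6, Neurod2 and Zbtb18, which are expressed in forebrain excitatory neurons, and the general neuronal genes Tubb3 and Stmn2. The exception was Slc17a7, the vesicular glutamate transporter VGLUT1, at percentile 69.5 and 34.9 on the arrays labelled knockout and 54.6 and 52.7 on those labelled control. Sex-linked genes, looked at after other values were seen, differed between arrays. Xist, the RNA of the inactive X chromosome, had signals of 4093 and 39.9 on the arrays labelled knockout, against 2994 and 36.3 on those labelled control, and was thus high in replicate 1 alone. The Y-linked gene Eif2s3y had 10.7 and 830 on the arrays labelled knockout, against 304.5 and 714 on those labelled control (log2 -2.96 in pair 1 and 0.21 in pair 2), so in replicate 1 its signal was low on the knockout array alone. The part of these sex-linked differences in the values of the CA2 and CA3 genes was not tested.

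No probe set of the 8 genes passed the test between the labelled groups. limma, fitted to all 45037 probe sets without the replicate number, called 0 of the 19 probe sets at an adjusted p of 0.05 (0.0% of all probe sets, 25 of which had an unadjusted p under 0.05, none of them in the set). The gap between the scales enters the error of this fit. A second limma fit, blocked on the replicate number, also called 0 of the 19 (0.0% of all probe sets, with 366 under an unadjusted p of 0.05, again none in the set). The adjusted p of every one of the 19 probe sets was 1 in both fits. Within pairs, 5 of the 19 probe sets were over 2-fold apart in pair 1, 4 of them higher and 1 lower, and 10.1% of all probe sets were that far apart (3.63% higher and 6.48% lower). In pair 2, 1 of the 19 was over 2-fold apart, on the lower side, against 0.331% of all probe sets (0.178% on the lower side and 0.153% on the higher).

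Opposite directions in the 2 pairs were common in the set and among all probe sets. Nectin3 and Socs2 gave 6 of the 19 probe sets each, so the probe sets are not separate genes. Of the 19 probe sets, 14 had opposite signs in the 2 pairs, against 53.0% of all probe sets. In detail, 8 were higher in the first pair but lower in the second (20.9% of all probe sets), 6 had the reverse pattern (32.1%), 4 were lower in both (22.7%) and 1 was higher in both (24.2%). Taking for each gene its brightest probe set by mean signal, called leading here, 5 of 8 genes had opposite signs, against 53.1% of 18193 genes. These 5 include Rgs14 (log2 -0.05 and 0.04) and Coch (0.03 and -0.10), which were close to 0 in both pairs. The median over the 8 leading probe sets was log2 0.39 in pair 1 and -0.29 in pair 2, and over all genes it was -0.04 and 0.01. Over all 19 probe sets the median was -0.05 in pair 1 and -0.10 in pair 2, and over all probe sets on the array -0.05 and 0.02. The signals of both labelled groups overlapped for 18 of the 19 probe sets, and the groups were apart for 1, against 9.5% of all probe sets. That one was the dim Nectin3 probe set 1457257_x_at, where both knockout arrays lay below both control arrays (4.56% of all probe sets did so). Signals of both scales entered this comparison. A probe set that follows the scales overlaps even where both pairs agree, so an overlap says little about the groups. Bok, for example, was lower in both pairs and its groups overlapped.

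**Figure D1:**
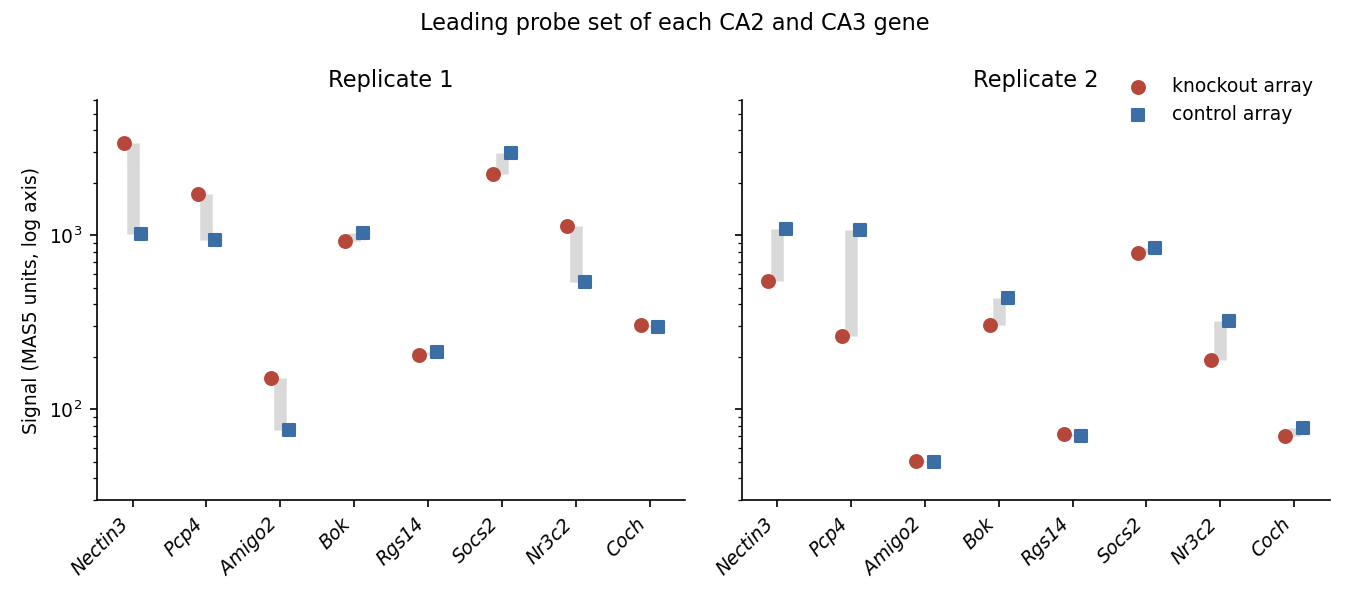
Signal of the leading probe set of each gene on the arrays labelled knockout (circles) and control (squares), for replicate 1 (left) and replicate 2 (right), on a log axis in MAS5 units. The grey bars join both arrays. Nectin3, Pcp4 and Nr3c2 lie above control on the left and below it on the right.

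Among the CA2 markers, Pcp4 had the widest difference of the set in pair 2. Pcp4, which encodes a small calmodulin-binding protein that speeds calcium exchange of calmodulin, was measured by 1460214_at alone. Its signal was 1725 and 265 on the arrays labelled knockout of replicates 1 and 2, against 937 and 1070 on those labelled control. The array labelled knockout was thus the higher of the pair in replicate 1 and the lower in replicate 2, and the groups overlapped. The ratio of knockout to control was 1.84 in pair 1 and 0.248 in pair 2, or log2 0.86 and -1.89. In pair 2 this was the value at rank 5 from the lowest among 45037 probe sets, while in pair 1 it stood at rank 2403 from the highest. By rank within the array, Pcp4 lay at percentile 90.5 and 83.0 on the arrays labelled knockout, against 83.3 and 96.5 on those labelled control. limma gave log2 -0.52 ± 1.67 (SE, n = 2 per group, adjusted p = 1) without the block and an SE of 0.54 with it (adjusted p = 1).

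Nr3c2 went the same way as Pcp4 in each pair. It encodes the mineralocorticoid receptor, the high-affinity receptor for corticosterone in hippocampal neurons, and was measured by 1435991_at alone. Its signal was 1122 and 191.5 on the arrays labelled knockout, against 536 and 321 on those labelled control. Knockout over control came to 2.09 in pair 1 and 0.597 in pair 2, or log2 1.02 and -0.66, and the groups overlapped. These differences stood at rank 1526 from the highest in pair 1 and at rank 318 from the lowest in pair 2 among all probe sets. Its percentile was 85.6 and 77.1 on the arrays labelled knockout and 74.6 and 86.0 on those labelled control. The limma estimate was log2 0.18 ± 1.42 (SE, n = 2 per group, adjusted p = 1).

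Amigo2 and Rgs14, the other CA2 markers, were dim, and neither was 2-fold apart in a pair. Amigo2 encodes a leucine-rich repeat adhesion protein of the cell surface. Its leading probe set 1434601_at had signals of 151.5 and 50.5 on the arrays labelled knockout, against 76.4 and 49.7 on those labelled control, and it was the only one of the 19 that was higher in both pairs (log2 0.76 and 0.01). The pair 2 value is 0.01 only in the deposited scaling, and quantile normalization gave -0.01. On the replicate 2 arrays it ranked at percentile 33.8 for knockout and 34.1 for control, below the middle of each array. The second Amigo2 probe set, 1447769_x_at, had signals of 4.5 and 129 on the arrays labelled knockout against 7.2 and 116 on those labelled control, so it was near the bottom of the replicate 1 arrays and above the middle of the replicate 2 arrays. The suffix marks a probe set whose probes may bind other transcripts as well. Rgs14 encodes a regulator of G protein signalling that limits synaptic potentiation in CA2 neurons of the mouse. Its probe set 1419221_a_at had signals of 204 and 72.4 on the arrays labelled knockout, against 212 and 69.9 on those labelled control. Its ratios, 0.961 and 1.04, were the closest to 1 of all leading probe sets taken over both pairs, and its sign in pair 1 (log2 -0.05) turned to 0.02 with quantile normalization.

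Among the CA3 markers, Nectin3 had the widest difference in pair 1. It encodes an immunoglobulin-like adhesion molecule that, in mice, sits on the dendritic side of the adherens junctions beside mossy fibre synapses. Its leading probe set 1448673_at had signals of 3388 and 545 on the arrays labelled knockout, against 1022 and 1087 on those labelled control. The array labelled knockout was again the higher one in replicate 1 and the lower one in replicate 2. Knockout over control came to 3.32 in pair 1 and 0.501 in pair 2, or log2 1.70 and -0.96, at rank 156 from the highest and rank 101 from the lowest of all probe sets. Its percentile was 95.5 and 92.4 on the arrays labelled knockout, against 84.5 and 96.6 on those labelled control. limma gave log2 0.37 ± 1.78 (SE, n = 2 per group, adjusted p = 1) without the block and an SE of 0.52 with it (adjusted p = 1).

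The other probe sets of Nectin3 mostly repeated this direction. Of its 6 probe sets, 5 were higher in pair 1 (45.1% of all probe sets) and 6 were lower in pair 2 (43.6%). They bind transcripts of 1 gene in the same RNA, so they are not replicates of the comparison. The bright probe set 1423331_a_at had signals of 2357 and 464 on the arrays labelled knockout, against 959 and 913 on those labelled control (log2 1.27 and -0.93). 1417319_at, which the platform annotation ties to the same RefSeq transcript as the leading probe set, had 774 and 41.9 against 196 and 67.1 (log2 1.82 and -0.42). The pair tied to another Nectin3 transcript had smaller differences. Of that pair, 1421132_at was at log2 0.74 and -0.17, and 1421133_at at 0.19 and -0.22. The exception, 1457257_x_at, had 42.2 and 55.3 on the arrays labelled knockout against 85.9 and 72.9 on those labelled control, and was lower in both pairs (log2 -0.66 and -0.26). It ranked below percentile 50 on all 4 arrays (28.3 and 37.4 against 39.3 and 49.5), and its suffix marks probes that may bind other transcripts.

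Bok, Socs2 and Coch differed less than Nectin3. Bok, a BCL-2 family member related to the cell death effectors Bax and Bak, had signals of 925 and 303 on the arrays labelled knockout, against 1031 and 435 on those labelled control. It was lower in both pairs, with ratios of 0.897 and 0.697 (log2 -0.15 and -0.48). Its unadjusted p in limma's blocked fit, 0.0879, was the smallest of the 19 probe sets there (log2 -0.32 ± 0.16, SE, n = 2 per group, adjusted p = 1). The signals of both groups overlapped across the 2 scales. Coch encodes cochlin, a secreted matrix protein best known from the inner ear. Its probe set 1423285_at had signals of 305 and 70.5 on the arrays labelled knockout against 298 and 77.6 on those labelled control (log2 0.03 and -0.10), so each pair lay close together.

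Socs2 encodes a suppressor of cytokine and growth hormone signalling, and its 6 probe sets separated by pair. The leading one, 1449109_at, had signals of 2255 and 788 on the arrays labelled knockout, against 2969 and 847 on those labelled control (log2 -0.39 and -0.10). All 6 were lower in pair 1, between log2 -0.32 and -1.14, and 54.7% of all probe sets were lower there. In pair 2 all 6 lay between -0.10 and 0.13, with 2 lower and 4 higher (56.3% of all probe sets were higher). Both that were lower in both pairs, 1449109_at and 1418507_s_at, are the brightest of the 6 and are tied to 1 RefSeq transcript. The widest, 1446085_at, had 113 and 47.8 against 287 and 44.1, and it ranked at percentile 31.5 and 29.0 on the replicate 2 arrays labelled knockout and control, so its pair 2 value rests on dim signals.

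**Figure D2:**
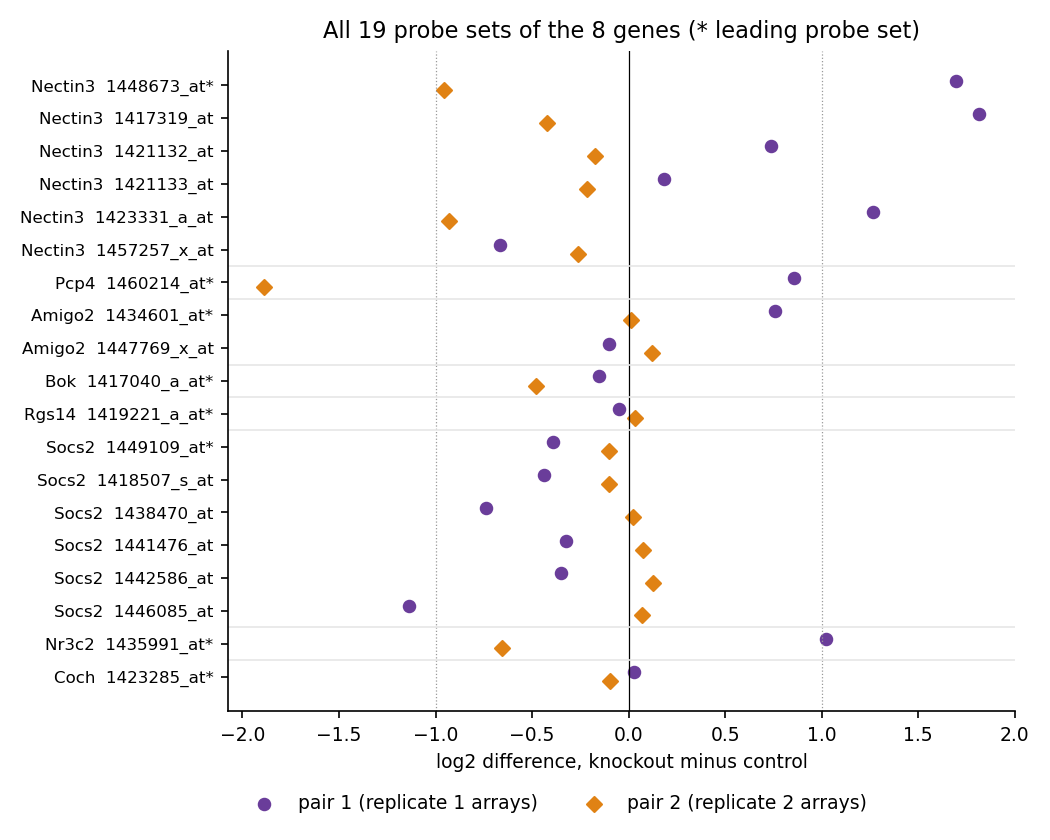
Difference between the arrays labelled knockout and control (log2, x axis) for the 19 probe sets in pair 1 (circles) and pair 2 (diamonds), grouped by gene, with dotted lines at 2-fold. Most Nectin3 probe sets lie right of 0 in pair 1 and all 6 lie left of 0 in pair 2, while all 6 Socs2 probe sets lie left of 0 in pair 1.

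The order of the levels was steadier at its lower end than at its upper end. Signals of different probe sets do not compare amounts of RNA, so the order is by rank among all probe sets of an array. Amigo2 was the lowest of the 8 leading probe sets on all 4 arrays, at percentile 52.8 and 33.8 on the arrays labelled knockout and 36.8 and 34.1 on those labelled control. Rgs14 and Coch took the next places, between 47.2 and 65.1, and swapped order on the replicate 2 array labelled knockout, where they lay at 48.2 and 47.2. The upper 5 places were always held by Socs2, Nectin3, Pcp4, Bok and Nr3c2. Socs2 moved least among these, between 92.8 and 95.3. Nectin3 was first on the replicate 1 array labelled knockout (95.5) and on the replicate 2 array labelled control (96.6), and held the third place on the replicate 1 array labelled control (84.5, beside Bok at 84.6 and Pcp4 at 83.3).

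**Figure D3:**
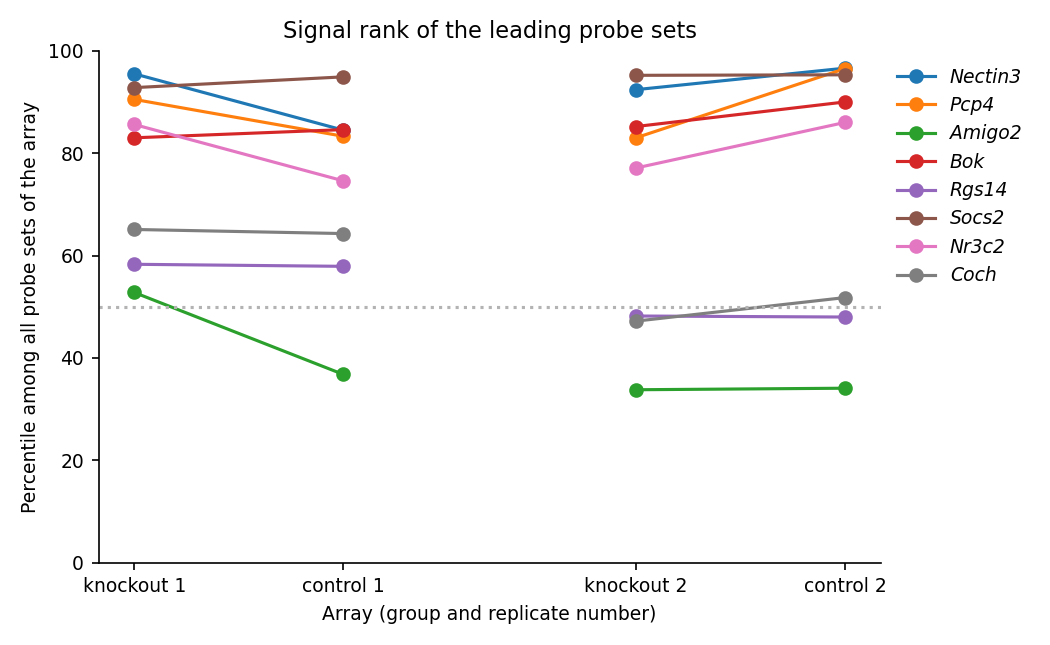
Percentile of the leading probe set of each gene among all probe sets (y axis) on the arrays labelled knockout and control of replicates 1 and 2 (x axis), with lines joining both arrays of a pair and a dotted line at the middle of the array. Amigo2 is lowest on all 4 arrays, and the lines of Nectin3, Pcp4 and Nr3c2 slope one way in replicate 1 and the other way in replicate 2.

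Genes outside the set were sought with differences like those of Nectin3 and Pcp4. Likeness was measured as the Euclidean distance between the 2 log2 differences, over 2 pairs and 15714 probe sets that were above the array median on all 4 arrays. Nearest to Nectin3 were Pcdh20, a protocadherin (1.85 in pair 1 and -1.09 in pair 2, distance 0.21), Tacr3, the neurokinin B receptor (1.56 and -1.21, distance 0.29), and Zeb2, a zinc finger transcription factor (1.63 and -0.65, distance 0.32). Nearest to Pcp4 were Hpca, the calcium sensor hippocalcin (0.85 and -1.58, distance 0.31), Cck, the precursor of cholecystokinin (0.96 and -1.44, distance 0.46), and Trps1, a GATA-type repressor (0.997 and -1.38, distance 0.53). The Trps1 probe set was not the leading one of its gene. Distances were not scaled to the SD of each pair, which was smaller in pair 2. There Cck and Trps1 lay clearly less far below 0 than Pcp4 (-1.89). With so few pairs, a short distance says that these values lie close together and no more.

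**Figure D4:**
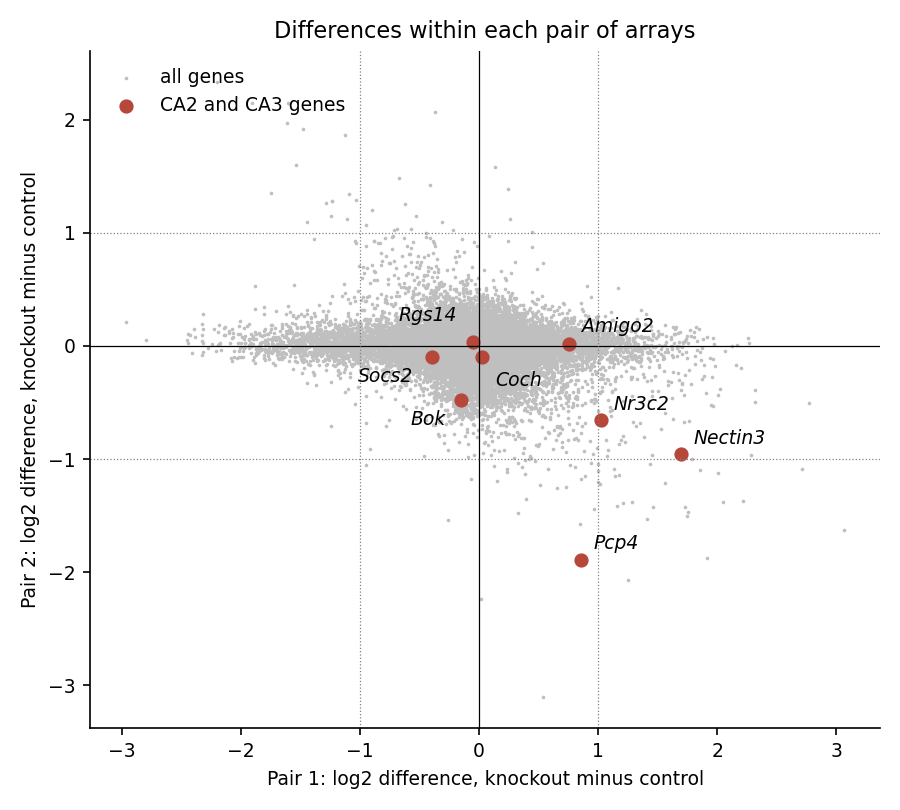
Difference between the arrays labelled knockout and control (log2) in pair 1 (x axis) and pair 2 (y axis) for the leading probe set of each of 18193 genes (grey) and of the 8 CA2 and CA3 genes (red), with dotted lines at 2-fold. Nectin3, Pcp4 and Nr3c2 lie at the lower right, and Amigo2, Bok, Rgs14, Socs2 and Coch lie nearer the centre.

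Other genes used as markers of these fields did not share one direction. Of 9 further CA2 genes 6 were measured, and limma called 0 of them in either fit. In pair 1, 3 were higher and 3 lower (median log2 0.06), in pair 2, 1 was higher and 5 were lower (median -0.04), and 0 were over 2-fold apart in either pair. Of 9 further CA3 genes 8 were measured, and 0 were called in either fit. In pair 1, 4 were higher and 4 lower (median -0.08), and in pair 2, 3 were higher and 5 lower (median -0.18). In both pairs, 3 of the 6 CA2 genes and 4 of the 8 CA3 genes ran with Nectin3 and Pcp4 (23.6% of all genes did). Some of these differences were small, such as that of Grik4 in pair 1 (log2 0.02). The reverse direction held for 1 of the CA2 genes and 3 of the CA3 genes (29.5% of all genes). The remaining 2 CA2 genes and 1 CA3 gene, Nnat (log2 -0.17 and -0.85), lay below control in each pair. Dkk3, a secreted protein of the Dickkopf family, was the 1 further CA3 gene over 2-fold apart, and it ran opposite to Nectin3 and Pcp4. It had signals of 691.5 and 416 on the arrays labelled knockout, against 1667 and 152 on those labelled control (log2 -1.23 and 1.28). Over all genes, 9.16% were over 2-fold apart in pair 1 and 0.467% in pair 2, while 45.7% were higher in pair 1 and 51.6% in pair 2.

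In pair 2 the median of the CA1 genes lay above that of all genes (log2 0.01), and that of the dentate gyrus genes lay close to it. The median of the 8 leading CA2 and CA3 probe sets was log2 -0.29 there. The median of 8 CA1 genes was log2 0.21 in pair 1 and 0.16 in pair 2, with 2 of 8 in the class that was higher in the first pair but lower in the second. These 2 include Lmo1 (0.89 and -1.15), which was further below 0 in pair 2 than the leading Nectin3 probe set (-0.96). For 9 dentate gyrus genes the median was 0.27 and 0.02, with 3 of 9 in this class. The CA2 and CA3 set had 4 of 8 in this class, against 23.6% of all genes. These 4 include Coch, which was close to 0 in both pairs (0.03 and -0.10). No test of a difference between these fields was made.

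Markers of other regions and cell types also differed within the pairs. For the subiculum and retrosplenial cortex all 8 measured genes ran opposite to Nectin3, Pcp4 and Nr3c2 in each pair, with medians of log2 -0.66 in pair 1 and 0.70 in pair 2 (29.5% of all genes had that direction in both). Their summed signal was 13925 and 9413 on the arrays labelled knockout, against 36948 and 2692 on those labelled control. GABAergic interneuron genes ran with Nectin3, Pcp4 and Nr3c2, since 9 of 10 were higher in pair 1 and 10 of 10 lower in pair 2, where 48.4% of all genes were lower (medians 0.28 and -0.87). Their summed signal was 15312 and 2674 on the arrays labelled knockout and 11860 and 4924 on those labelled control. Of 10 deep cortical layer genes, 5 ran opposite to these genes in both pairs and 2, Crym and Foxp2, ran with them (medians -0.07 and 0.52). Their summed signal was 23809 and 7334 on the arrays labelled knockout, against 22206 and 8373 on those labelled control, and without Crym, the brightest, it was 12916 and 5107 against 16766 and 3547.

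Choroid plexus genes were higher in both pairs for 7 of 8, as were 22.0% of all genes (medians 0.65 and 0.46), all but Otx2. Ttr, the transthyretin gene and by far the brightest of them, had signals of 74106 and 9232 on the arrays labelled knockout, against 62551 and 3505 on those labelled control. Their summed signal was 76599 and 9741 on the arrays labelled knockout, against 64130 and 3882 on those labelled control. Of 6 striatal genes, 5 were higher in pair 1 and 3 in pair 2 (medians 0.84 and -0.01). Of 7 thalamic genes, 2 were higher in each pair (medians -0.18 and -0.05). Among 8 glial genes (astrocytes or radial glia), 3 were higher in pair 1 and 1 in pair 2 (medians -0.07 and -0.13). Among liver genes all 11 that were measured were lower in pair 1 (median -1.90), as were 54.3% of all genes, and 6 were higher and 5 lower in pair 2 (median 0.01). Their summed signal was 21255 and 473 on the arrays labelled knockout, against 63533 and 484 on those labelled control, and in replicate 1 their median rank was at percentile 71.8 against 90.9. Alb, the brightest of them in replicate 1, had signals of 15195 and 45.2 on the arrays labelled knockout, against 39309 and 42.2 on those labelled control. It thus lay at percentile 99.3 and 99.9 on the replicate 1 arrays labelled knockout and control, and at 29.1 and 27.3 on those of replicate 2. No probe set on the arrays had a signal of 0. A signal above 0 alone therefore does not show that the tissue of a marker was present. The part of these regions and cells in the values of the CA2 and CA3 genes was not tested.

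**Figure D5:**
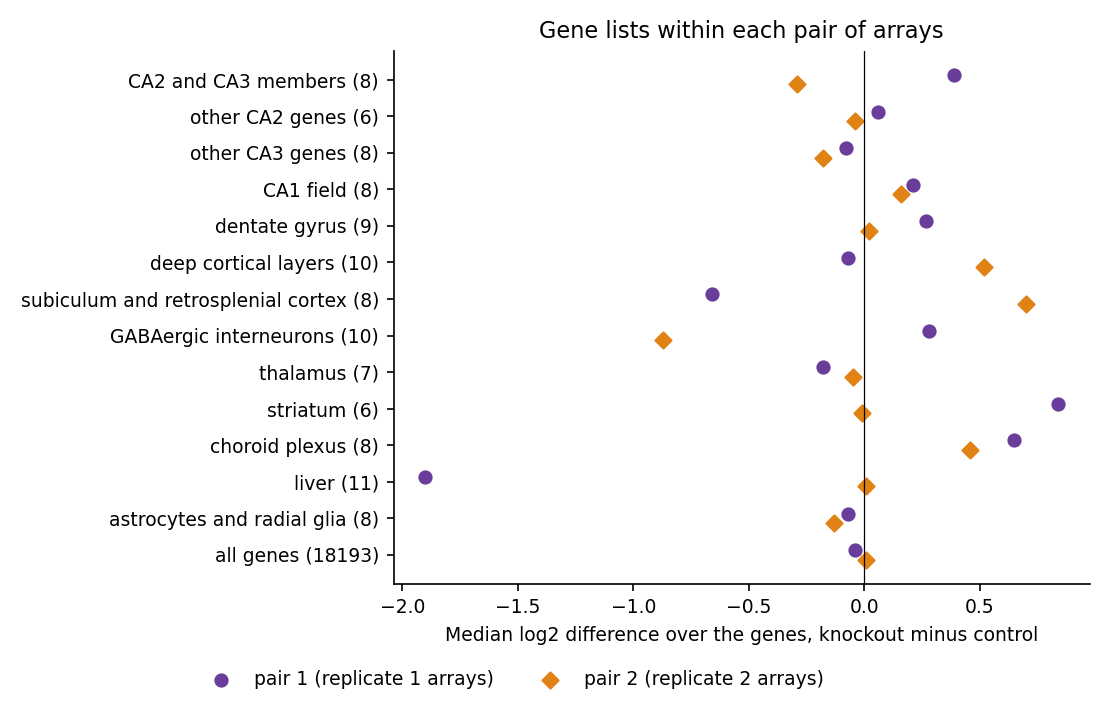
Median difference between the arrays labelled knockout and control (log2, x axis) over the leading probe sets of each gene list in pair 1 (circles) and pair 2 (diamonds), with the number of measured genes in brackets. The CA2 and CA3 members and the GABAergic interneuron genes have a positive median in pair 1 and a negative one in pair 2, and the subiculum and retrosplenial cortex genes the reverse.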

How the data were processed

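Values were MAS5 signal intensities on a linear scale, per the submitters' processing notes, and used as deposited. MAS5 version, scaling target and background setting are not given in the sources used here. Of 45037 probe sets, 34945 had 1 gene symbol in the platform annotation, 932 several and 9160 none. Signals were transformed as log2(signal + 32.56). limma 3.58.1 in R 4.3.3 (lmFit, eBayes with a mean-variance trend) was fitted to all probe sets and 4 arrays, without filter or covariate, with Benjamini-Hochberg adjustment over all probe sets and a threshold of 0.05. Simulated data had both scales, the spread between the replicate 2 arrays as noise, and known changes alike in both pairs. On them the blocked fit recovered changes that the fit without the block missed, and the share recovered is not given here. The absence of calls without the block therefore says little about the set. On the real arrays the SD of the log2 differences over all probe sets was 0.58 in pair 1 and 0.20 in pair 2. With noise from replicate 2 alone, the simulation does not show what the blocked fit could recover on the real arrays. A filter at the 40th percentile would have kept 16 of the 19 probe sets. Without the block, residual degrees of freedom were 2 and the prior ones infinite, so each SE comes from the trend across probe sets of like signal, and the gap between the scales enters it. No label ties a replicate number to a litter or a day. The scale coincides with the number, so a blocked fit and values within pairs are given.

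The members and gene lists were chosen with earlier results of these data known. Named were all member probe sets, the 3 nearest patterns to Nectin3 and to Pcp4, and other CA2 or CA3 genes over 2-fold apart in a pair. No probe positions were used. Alternatives were other normalizations, pseudocounts, filters, 1 probe set a gene, other variance models, the block and leaving out each array. The median over a gene's probe sets was added after the data were seen.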

Additional observations from a re-analysis of the deposited data

How the results depend on the processing

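No alternative gave a call: limma called 0 probe sets and 0 of the set under each one run. The replicate block kept every estimate and narrowed the SE, for example for Pcp4 (log2 -0.52, SE 0.54), Nectin3 (0.37, SE 0.52), Bok (-0.32, SE 0.16) and Socs2 (-0.25, SE 0.15), each with an adjusted p of 1 in limma. Across probe sets, the deviations from the group mean of arrays with one number had a correlation of 0.842, and with 2 numbers and no label behind them this does not show pairing. The fits that left out 1 array had no block, so the scales were unbalanced between the groups and the gap between them entered each estimate. The turns and ranges that follow therefore do not measure how steady a difference within a pair is. Leaving out 1 array turned the sign of every gene's estimate in at least 1 case, also for Bok and Socs2, which were lower in both pairs. For Nectin3 this was only without the knockout array of replicate 1, and for Pcp4 only without the knockout array of replicate 2. The estimates ranged from -0.91 to 1.65 for Nectin3, -1.80 to 0.77 for Pcp4, -0.19 to 0.96 for Amigo2, -1.07 to 0.44 for Bok, -0.64 to 0.62 for Rgs14, -1.13 to 0.64 for Socs2, -1.0 to 1.37 for Nr3c2 and -0.89 to 0.82 for Coch. Rgs14, at -0.01, also turned to 0.02 with quantile normalization and to 0.01 with scaling to 1 trimmed mean. The cause was not tested. Of 80 within-pair values of leading probe sets under other normalizations and pseudocounts, 2 moved by more than the spread between the pairs (Rgs14 in pair 1 at 0.02 and Coch in pair 2 at -0.22, both with quantile normalization). Of the 38 within-pair values of all probe sets, 3 turned sign under at least 1 of these (Rgs14, Amigo2 and the Socs2 probe set 1438470_at, all within 0.05 of 0).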

Other observations

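Nectin3 and Zbtb20 lie on the same chromosome, and the RefSeq table (GRCm38.p6) has 35 protein-coding genes between them, of which 28 were measured. Of these, 9 had the direction of Nectin3 in both pairs (23.6% of all genes did), 1 was over 2-fold apart in pair 1 and 0 in pair 2, and the medians were log2 0.08 and 0.01. The values of the leading Nectin3 probe set, 1.70 and -0.96, lay outside those of its measured neighbours on that side, which ranged from -0.98 (Cd200) to 1.17 (BC016579) in pair 1 and from -0.48 (Plcxd2) to 0.60 (Cd200) in pair 2. The Nectin3 probe sets 1421132_at (0.74 and -0.17), 1421133_at (0.19 and -0.22) and 1457257_x_at (-0.66 and -0.26) lay inside these ranges in both pairs. 1417319_at (1.82 and -0.42) lay inside in pair 2 alone, and 1423331_a_at (1.27 and -0.93) in neither. Pcp4 is also on chromosome 16, outside this stretch. Whether the position of a gene bears on its values was not tested. This stretch was chosen after the values of Nectin3 were seen.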
